A study of Rattus norvegicus with 78 samples.

Results

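The genes described here are 8 members of the antigen processing and presentation pathway of the rat, namely B2m, Psmb8, Psmb9, Tap1, Tap2, RT1-S3, Cd74 and RT1-Da. They were found as every probeset, the group of oligonucleotides that the array reads as 1 value, whose gene symbol in the array annotation is one of these names, which gave 13 of the 31042 probesets that are not controls. RT1-S3 had 4 probesets, B2m and Tap1 had 2 each and the other members had 1 each. The values come from adult male rats of the Flinders Sensitive Line (FSL), a line used as a model of depression, and of its control, the Flinders Resistant Line (FRL), both bred in 1 colony. RNA of the prefrontal/frontal cortex (P/FC, the whole frontal lobe) and of the hippocampus (HIP) of the right hemisphere was measured on Affymetrix Rat Genome arrays, after a forced swim test that rats of both lines had taken and a rest of about 1 week. Each region had 39 arrays, with 8 FSL and 10 FRL rats in cohort 2, which followed some months after cohort 1, and 9 FSL and 12 FRL rats in cohort 1. The methods say that both regions came from the same rats and were processed separately, so region and processing cannot be told apart, and the labels do not pair the arrays of 1 rat.

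MHC class I molecules show peptides from inside the cell, and consist of a heavy chain and the light chain beta-2 microglobulin, encoded by B2m. Psmb8 and Psmb9 encode catalytic subunits of the immunoproteasome, which interferon induces and which cuts proteins into such peptides, and Tap1 and Tap2 encode the subunits of the transporter that carries them into the endoplasmic reticulum. RT1-S3 encodes a heavy chain of the non-classical class I kind in the RT1 complex, the rat MHC. MHC class II molecules show peptides taken up from outside, and are carried mainly by microglia, macrophages and dendritic cells in the brain and its coverings: RT1-Da encodes an alpha chain and Cd74 the invariant chain that fills the groove until a peptide is loaded. B2m lies on chromosome 3 and Cd74 on chromosome 18, and the other members lie in or beside the RT1 complex on chromosome 20.

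The promoters of 3 members of the class I route are shown. B2m and RT1-S3 encode chains of class I molecules, and Psmb8 encodes a subunit of the immunoproteasome. Those of the transporter genes are not shown. All 8 members were in the RefSeq promoter table (build GRCr8), which gives 300 bases around the start of a gene, most of them before it. The stretches are chr3:129549080-129549379 on the plus strand for B2m, chr20:4656982-4657281 on the minus strand for Psmb8 and chr20:2675278-2675577 on the plus strand for RT1-S3. Capitals mark every match, on either strand, to the core of the interferon-stimulated response element (GAAA, any 2 bases and GAAA again), TTCNNNGAA (the gamma-activated site) or CCAAT (the core of the Y box), and no matches overlapped.
B2m: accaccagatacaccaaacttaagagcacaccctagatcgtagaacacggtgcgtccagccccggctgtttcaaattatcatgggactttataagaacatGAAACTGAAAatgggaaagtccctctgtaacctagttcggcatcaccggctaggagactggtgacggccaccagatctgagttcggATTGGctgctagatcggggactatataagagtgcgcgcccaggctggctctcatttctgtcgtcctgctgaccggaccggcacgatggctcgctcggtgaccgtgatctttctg
Psmb8: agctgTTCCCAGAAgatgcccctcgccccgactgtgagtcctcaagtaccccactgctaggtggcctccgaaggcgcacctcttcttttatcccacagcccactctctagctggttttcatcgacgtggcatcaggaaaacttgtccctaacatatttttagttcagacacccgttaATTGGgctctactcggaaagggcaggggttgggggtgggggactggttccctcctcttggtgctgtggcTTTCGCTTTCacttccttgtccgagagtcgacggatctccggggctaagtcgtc
RT1-S3: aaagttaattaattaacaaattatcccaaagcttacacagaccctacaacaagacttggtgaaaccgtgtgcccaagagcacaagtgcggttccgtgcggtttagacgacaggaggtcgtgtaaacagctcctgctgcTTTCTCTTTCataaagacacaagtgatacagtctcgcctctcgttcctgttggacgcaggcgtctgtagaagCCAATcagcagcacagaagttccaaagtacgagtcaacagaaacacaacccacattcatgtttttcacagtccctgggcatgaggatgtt
The interferon-stimulated core was found in 5 of the 8 members, B2m, Psmb8, RT1-S3, Tap1 and Tap2, and in 3.92% of the 33469 promoters of the table. CCAAT was found in 6 of the 8 members (all but Tap1 and Tap2) and in 37.5% of all promoters, and TTCNNNGAA in Psmb8 of the members and in 8.87% of all promoters. Counted from the start of the gene, the match to the interferon-stimulated core ran from -150 to -141 in B2m, from -112 to -103 in RT1-S3 and from -4 to 6 in Psmb8, and the B2m and RT1-S3 promoters held a CCAAT from -64 to -60 and from -40 to -36. These matches are a description of the letters, and no binding was measured. Tap1 and Psmb9 are transcribed away from each other, and their promoter stretches share 44 bases.

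Every array was above an intensity of 30, the limit that the study set for a probeset to be analysed, for both B2m probesets. A probeset was kept in a region if 50% or more of its arrays in both FSL and FRL were above 30, and 11 of the 13 member probesets, from 7 of the 8 genes, passed in each region. Tap1 1388149_at was left out of both regions, since 0 of the 78 arrays were above 30. Tap1 1375379_at was left out of P/FC, where 14 of 17 FSL and 9 of 22 FRL arrays were above 30, and Cd74 was left out of HIP, where 7 of 17 FSL and 13 of 22 FRL arrays were. For these 3 probesets the array gave low values in the region concerned, and their changes are given below from the fit without the filter.

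Of the 10 member probesets kept in both regions, 7 differed in level between P/FC and HIP, 5 higher and 2 lower in P/FC, where 69.6% of all probesets tested differed (limma, Benjamini-Hochberg adjusted p under 0.05). The median P/FC minus HIP difference was 0.17 for the members and 0.08 for all probesets (log2). The immunoproteasome subunits were lower in P/FC. Psmb8 ranged over 24.7, 34.3 and 65.3 (lowest, median and highest intensity of 39 arrays) in P/FC, against 26.8, 50.7 and 73.2 in HIP. Its P/FC minus HIP difference was -0.44 on the log2 scale (SE 0.07, limma adjusted p = 1.52e-07), while that of Psmb9 was -0.19 (SE 0.06, limma adjusted p = 0.00357). Tap2 went the other way, with 27.7, 45.4 and 60.7 in P/FC against 18.3, 35.0 and 62.7 in HIP, a difference of 0.42 (SE 0.07, limma adjusted p = 9.2e-08). RT1-Da was also higher in P/FC, by 0.32 (SE 0.09, limma adjusted p = 0.000782). The levels of the regions overlapped for each of these genes, and the fit took the arrays of 1 rat as independent.

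The probesets of RT1-S3 did not share 1 regional difference. 1388164_at had 27.8, 72.5 and 126.7 in P/FC (lowest, median and highest) against 10.7, 35.0 and 74.5 in HIP, a difference of 1.11 (SE 0.13, limma adjusted p = 5.57e-12). The differences were 0.49 for 1388212_a_at (limma adjusted p = 0.00271) and 0.35 for 1388213_a_at (limma adjusted p = 0.0216). For 1371123_x_at the difference was 0.00, with a 95% interval from -0.23 to 0.23. RT1 heavy chains form a large family of near-identical genes, and the name 1371123_x_at marks probes that match other sequences, so the share of each probeset that comes from RT1-S3 itself was not tested. For B2m the P/FC minus HIP difference was 0.02 (95% interval -0.05 to 0.09) by 1367595_s_at and -0.07 (-0.14 to -0.0032, limma adjusted p = 0.0577) by 1371440_at.

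Between the lines, B2m was the member called in both regions, and it was lower in FSL. With both cohorts given equal weight, 2 of the 11 member probesets kept in P/FC were called, both of B2m and both lower, where 18.6% of all probesets were called. In HIP 2 of 11 were called, again both of B2m and both lower, where 7.33% of all probesets were called. The calls among the members thus rest on 1 gene in each region. The median line difference of the members was -0.08 in P/FC and -0.13 in HIP, where the medians of all probesets tested were 0.0019 and -0.0016. The difference was negative for 10 of 11 member probesets in P/FC and 8 of 11 in HIP. These counts take each probeset of RT1-S3 and of B2m singly, so they are not counts of separate genes. Some values were near 0, such as -0.01 for Tap2 in P/FC. Tap1 1375379_at, left out of P/FC by the filter, was at 0.21 there. Of the 10 member probesets kept in both regions, 0 had a line difference that differed between P/FC and HIP at an adjusted p under 0.05, where 0.0668% of all probesets tested did. At an unadjusted p under 0.05, 0 of 10 did, where 7.94% of all probesets did (limma).

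**Figure D1:**
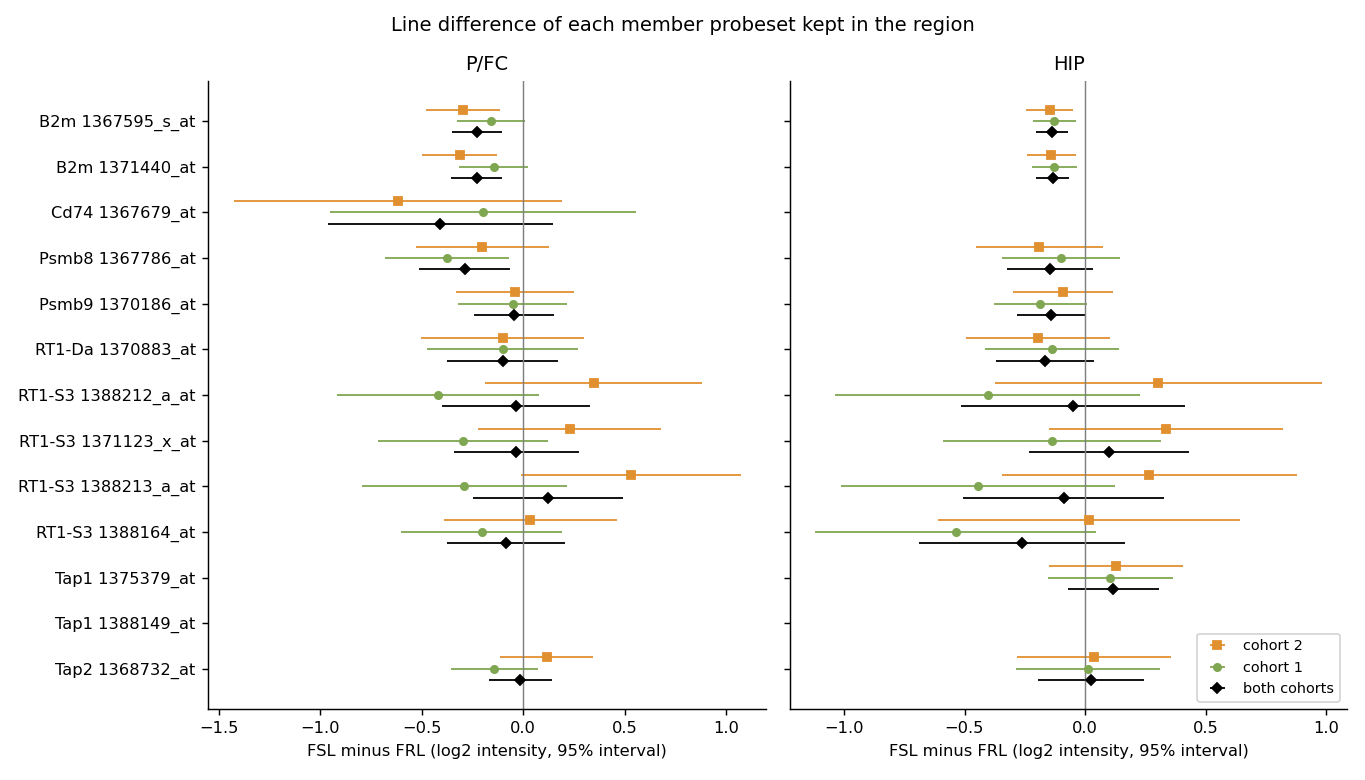
FSL minus FRL difference of each member probeset kept in a region (log2 intensity, x axis), in P/FC on the left and HIP on the right, for cohort 2 (squares), cohort 1 (circles) and both cohorts (diamonds), with 95% intervals from limma. The B2m diamonds lie below 0 with their whole interval in both regions, at -0.23 in P/FC and -0.14 and -0.13 in HIP. The RT1-S3 squares and circles lie on opposite sides of 0, with intervals that include 0.

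Within cohorts fewer members passed. In P/FC the count was 1 of 11 in cohort 2 (B2m 1371440_at), where 3.78% of all probesets were called, and 0 of 11 in cohort 1, where 7.8% were called. The cohort 2 count was 0 in 11 of 39 fits that each left out 1 array, and also without the filter, with cohorts fitted separately, with the Gapdh ratio and with the replicate block. At an unadjusted p under 0.05 (limma), 2 of 11 passed in cohort 2 of P/FC, both of B2m, where 19.8% of all probesets passed. In cohort 1 of P/FC 1 of 11 passed (Psmb8), where 23.1% of all probesets passed. In HIP the count called at the adjusted threshold was 0 of 11 in cohort 2 and 0 of 11 in cohort 1, where 2.33% and 2.36% of all probesets were called. At an unadjusted p under 0.05 (limma), 2 of 11, both of B2m, passed in each of these cohorts, where 13.8% of all probesets passed in cohort 2 and 14.5% in cohort 1. An unadjusted p under 0.05 in each cohort with the same direction, the kind of rule that the study used, was met by 0 of 11 member probesets in P/FC, where 9.87% of all probesets met it, and by 2 of 11 in HIP, both of B2m, where 4.85% met it. The difference between the cohorts in the line effect, cohort 2 minus cohort 1, was called for 0 of 11 member probesets in P/FC and 0 of 11 in HIP, and for 0% of all probesets in either region (limma). At an unadjusted p under 0.05 (limma), 2 of 11 member probesets differed in P/FC, where 4.63% of all probesets did. Both were of RT1-S3, and they ran together over the P/FC arrays after group means were removed (r = 0.88). In HIP 0 of 11 differed, where 4.33% of all probesets did.

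B2m, the light chain that every class I molecule needs, was read by 2 probesets that moved alike. In P/FC, 1367595_s_at had 1441, 1602 and 1994 (lowest, median and highest intensity of 17 arrays) in FSL, against 1465, 1996 and 2745 in FRL (22 arrays). In HIP it had 1527, 1709 and 1885 in FSL, against 1631, 1887 and 2230 in FRL. The groups overlapped in both regions, but 8 of 8 FSL arrays of cohort 2 and 8 of 9 of cohort 1 were below the FRL median of their own cohort, in P/FC and in HIP alike. The FSL minus FRL difference was -0.23 in P/FC (SE 0.06, limma adjusted p = 0.00743) and -0.14 in HIP (SE 0.03, limma adjusted p = 0.00596). Intensity thus fell by 14.7% in P/FC and fell by 9.05% in HIP. The P/FC difference was -0.30 in cohort 2 (limma adjusted p = 0.0511) and -0.16 in cohort 1 (limma adjusted p = 0.248), and the HIP difference was -0.15 in cohort 2 and -0.13 in cohort 1.

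The other B2m probeset, 1371440_at, had 302, 357 and 453 in FSL against 308, 429 and 536 in FRL in P/FC. In HIP it had 338, 396 and 445 in FSL against 373, 437 and 506 in FRL. Here too the groups overlapped, and 8 of 8 FSL arrays of cohort 2 were below the FRL median in each region, with 8 of 9 of cohort 1 in P/FC and 7 of 9 in HIP. The difference was -0.23 in P/FC (SE 0.06, limma adjusted p = 0.00786) and -0.13 in HIP (SE 0.03, limma adjusted p = 0.0099), so that intensity fell by 14.7% in P/FC and fell by 8.89% in HIP. The P/FC difference was -0.31 in cohort 2 (limma adjusted p = 0.0401) and -0.14 in cohort 1 (limma adjusted p = 0.31). The FRL arrays of P/FC were the most spread, with an SD of 0.23 (log2) for either probeset over both cohorts, against 0.13 and 0.14 in FSL.

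**Figure D2:**
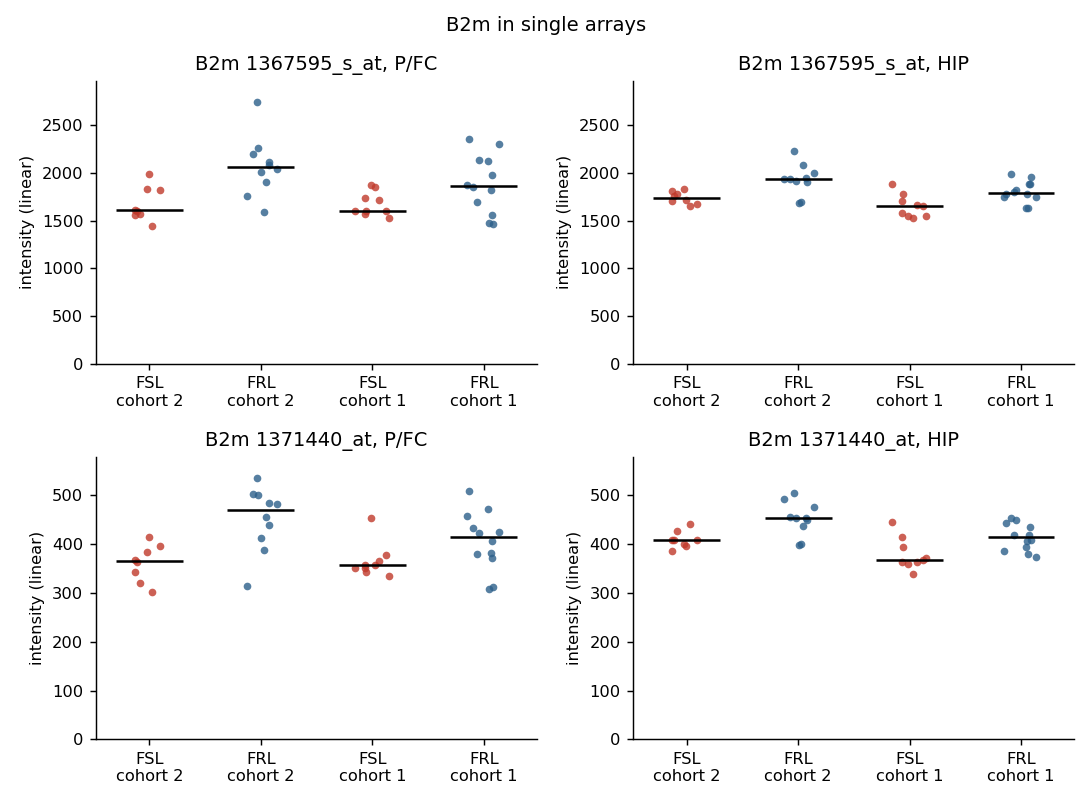
Intensity of B2m in each array (linear y axis from 0), by probeset (rows) and region (P/FC on the left, HIP on the right), for FSL (red) and FRL (blue) in cohort 2 and cohort 1, with a line at the median. Most FSL points lie below the FRL median of their cohort in every panel (8 of 8 in cohort 2), and the FRL points of P/FC spread the most, over 1465 to 2745 by 1367595_s_at.

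Astrocyte, microglia and vessel markers moved with B2m in P/FC, and in bulk tissue fewer cells of a type and less RNA per cell cannot be told apart. Of 7 astrocyte markers, 6 were called lower in FSL in P/FC and 5 in HIP, where 18.6% and 7.33% of all probesets were called. Among them were Aqp4 (a water channel, -0.26 in P/FC and -0.20 in HIP) and Slc1a3 (a glutamate transporter, -0.28 and -0.10). Their summed intensity in P/FC was 7195, 7987 and 9488 in FSL (lowest, median and highest array) and 7305, 9511 and 11493 in FRL. In HIP it was 10125, 10650 and 11166 in FSL and 10337, 11537 and 12557 in FRL. Across the 39 arrays of P/FC, after group means were removed, B2m 1367595_s_at ran with the mean log2 value of these markers at r = 0.80 (rho = 0.76, and r = 0.77 without the 2 arrays farthest from the median). In HIP that r was 0.25. Both values come from the same array, and so share its RNA and hybridisation. With the astrocyte mean as a covariate, the B2m difference in P/FC was 0.00066 (SE 0.05, limma adjusted p = 0.998) by 1367595_s_at and 0.0023 by 1371440_at, and in HIP it was -0.09 by both (limma adjusted p = 0.55 and 0.56). That covariate also lowered the calls over all probesets to 1.96% in P/FC and 1.43% in HIP.

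In P/FC 1 of 11 microglia markers and 3 of 9 endothelial and mural markers were called, all lower in FSL, where 18.6% of all probesets were called. Of 11 microglia markers kept in P/FC, 1 was lower in FSL at the threshold (Csf1r, the receptor for a growth factor of microglia, -0.29) and 11 had a negative difference. In HIP 1 of 10 kept was called, P2ry12 (a receptor for nucleotides), and it was higher in FSL, by 0.20 (limma adjusted p = 0.0276). There 7 of the 10 had a negative difference, the median was -0.04, and 7.33% of all probesets were called. The summed intensity of all 14 measured was 1255, 1458 and 1678 in FSL and 1331, 1683 and 2095 in FRL in P/FC, and 1190, 1392 and 1651 in FSL and 1253, 1428 and 1572 in FRL in HIP. In P/FC the r with B2m was 0.77 for the microglia mean and 0.61 for the endothelial and mural mean, and in HIP it was 0.17 and 0.52, where the choroid plexus mean gave 0.67 (rho = 0.51) and the meninges mean 0.62 (rho = 0.52). The summed choroid plexus markers of HIP ran over 248, 406 and 13873 in FSL and 223, 492 and 10961 in FRL, and their part in the B2m difference was not tested. Of 9 endothelial and mural markers, 3 were lower in FSL in P/FC, namely Cldn5 (a tight junction protein, -0.28), Tek (a receptor of angiopoietins, -0.28) and Vwf (von Willebrand factor, -0.60). Their summed intensity there was 1063, 1213 and 1365 in FSL and 1113, 1399 and 1817 in FRL, and 0 markers of the 3 lists were at 0 on all arrays. With the microglia mean as a covariate B2m stayed called in P/FC, at -0.15 by either probeset (limma adjusted p = 0.0159 and 0.0203). With the endothelial and mural mean it was -0.11 and -0.13 (limma adjusted p = 0.258 and 0.211). In HIP it stayed called with each of these covariates and with the meninges mean, at -0.12 to -0.14.

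Signs of RNA quality also moved with the line. The arrays carry control probesets at either end of Gapdh and Actb, and the ratio of the 3′ value over the 5′ value rises with loss of the 5′ end. On the log2 scale this ratio averaged, for Gapdh, 0.78 ± 0.06 in FSL and 0.87 ± 0.11 in FRL in P/FC, and 0.79 ± 0.07 in FSL and 0.83 ± 0.08 in FRL in HIP (SD, n = 17 and 22). For Actb it was 0.73 ± 0.13 in FSL and 0.79 ± 0.15 in FRL in P/FC, and 0.66 ± 0.08 in FSL and 0.76 ± 0.10 in FRL in HIP. With the Gapdh ratio as a covariate the B2m differences of P/FC were -0.16 and -0.11 (limma adjusted p = 0.206 and 0.396), and with the Actb ratio those of HIP were -0.15 and -0.10 (limma adjusted p = 0.0593 and 0.282). These covariates also left fewer calls over all probesets, 3.81% in P/FC and 2.04% in HIP. With the other ratio the calls were kept in each region. Leaving out each of the 39 arrays of a region in turn, both B2m probesets were called in 39 of 39 fits in P/FC and in HIP.

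Psmb8 and Psmb9, the immunoproteasome subunits, were not called in either region. Psmb8 had 25.7, 31.3 and 62.3 in FSL against 24.7, 41.1 and 65.3 in FRL in P/FC, where 6 of 8 FSL arrays of cohort 2 and 8 of 9 of cohort 1 were below the FRL median. In HIP it had 26.8, 51.8 and 63.4 in FSL against 38.9, 50.6 and 73.2 in FRL. The groups overlapped over most of their range, and in P/FC 12 of 17 FSL and 19 of 22 FRL arrays were above 30. The difference was -0.29 in P/FC (SE 0.11, 95% interval -0.51 to -0.06, limma adjusted p = 0.0646) and -0.15 in HIP (SE 0.09, limma adjusted p = 0.368). Leaving out 1 array brought Psmb8 under the threshold in 6 of the 39 fits of P/FC, the furthest without FSL cohort 1 no. 2 (-0.35, limma adjusted p = 0.0149), the highest FSL array. Psmb9 gave -0.05 in P/FC (95% interval -0.24 to 0.15) and -0.14 in HIP (-0.28 to 0.0024, limma adjusted p = 0.247). Within P/FC both subunits ran with B2m 1367595_s_at over the 39 arrays after group means were removed (r = 0.57 and 0.56), values that share the RNA of an array.

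The transporter genes gave no call. Tap2 had 27.7, 44.5 and 56.6 in FSL against 33.3, 46.3 and 60.7 in FRL in P/FC, a difference of -0.01 (95% interval -0.17 to 0.14). In HIP it had 21.6, 34.1 and 62.7 in FSL against 18.3, 35.4 and 53.3 in FRL, a difference of 0.02 (-0.19 to 0.24). Tap1 1375379_at had positive differences in each cohort, of 0.13 in cohort 2 and 0.29 in cohort 1 in P/FC and of 0.13 in cohort 2 and 0.10 in cohort 1 in HIP. In P/FC it had 23.4, 36.9 and 44.1 in FSL against 19.2, 29.8 and 48.9 in FRL, and the difference was 0.21 (SE 0.09, limma adjusted p = 0.135), these values of P/FC being from the fit without the filter. In HIP it had 24.6, 43.5 and 65.4 in FSL against 26.7, 40.3 and 56.6 in FRL, a difference of 0.12 (SE 0.09, limma adjusted p = 0.523). The other Tap1 probeset, below 30 on every array, gave -0.08 in P/FC and -0.38 in HIP without the filter (limma adjusted p = 0.901 and 0.373), so that the sign of the Tap1 difference was not the same in its probesets.

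RT1-S3 varied from array to array more than it did between the lines. Its 4 probesets ran together over the 39 arrays of a region after group means were removed, with r from 0.86 to 0.94. By 1388212_a_at, P/FC had 39.9, 143 and 247 in FSL (lowest, median and highest) against 55.1, 147 and 226 in FRL, and HIP had 32.9, 94.2 and 220 in FSL against 26.2, 109 and 185 in FRL. The lines thus overlapped over nearly the whole range in each region. The line difference over both cohorts was -0.04 in P/FC (95% interval -0.40 to 0.33) and -0.05 in HIP (-0.51 to 0.41). Over the groups of 1 line, region and cohort, the SD was 0.33 to 0.91 on the log2 scale for 1388212_a_at and as low as 0.26 for 1371123_x_at, and 0.05 to 0.24 for B2m 1367595_s_at.

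The line difference of RT1-S3 in mean log2 value had opposite signs in the cohorts, but every 95% interval within a cohort included 0. By 1388212_a_at it was 0.35 in cohort 2 and -0.42 in cohort 1 in P/FC, and 0.30 in cohort 2 and -0.40 in cohort 1 in HIP. The difference between the cohorts was 0.77 in P/FC (SE 0.36, unadjusted p = 0.0396 and adjusted p = 0.998 by limma) and 0.71 in HIP (SE 0.46, unadjusted p = 0.13 by limma). For 1388213_a_at in P/FC it was 0.82 (unadjusted p = 0.0309 and adjusted p = 0.998 by limma), with 0.53 in cohort 2 and -0.29 in cohort 1. All 4 probesets were positive in cohort 2 and negative in cohort 1, in P/FC and in HIP, except that 1388164_at in HIP was at -0.0068 in cohort 2 with 16 added to each value. By 1388164_at the cohort 2 difference was 0.03 in P/FC (SE 0.21) and 0.02 in HIP (SE 0.31). The cohort 2 median was lower in FSL by 1388164_at, at 71.2 against 72.7 in P/FC and 27.5 against 32.3 in HIP. By 1388212_a_at it was also lower in HIP, at 93.8 against 102. By the other probesets, and by 1388212_a_at in P/FC, it was higher in FSL. None of the differences between cohorts passed the adjusted threshold.

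**Figure D3:**
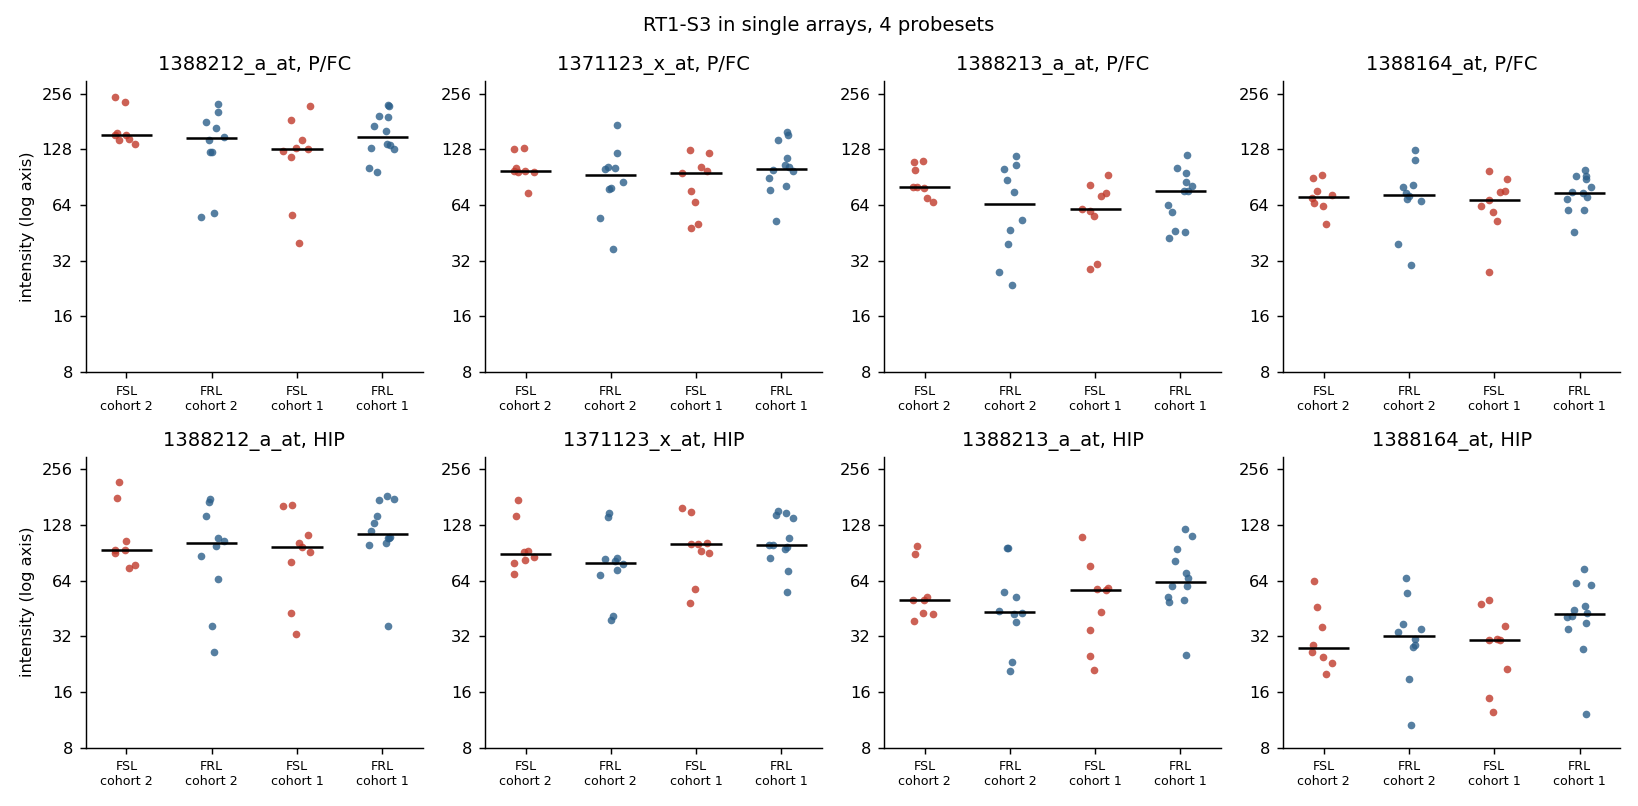
Intensity of the 4 RT1-S3 probesets in each array (log axis), in P/FC (top row) and HIP (bottom row), for FSL (red) and FRL (blue) in cohort 2 and cohort 1, with a line at the median. Single arrays lie far from the others of their group, such as the 2 FSL arrays of cohort 1 at 39.9 and 56.6 in P/FC by 1388212_a_at.

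Single arrays of FSL, by 1388212_a_at, show where that spread lies. In P/FC the lowest were cohort 1 no. 8 at 39.9 and cohort 1 no. 6 at 56.6, 11 arrays lay between 117 and 157, and the highest were cohort 1 no. 2 at 184, cohort 1 no. 4 at 220, cohort 2 no. 6 at 231 and cohort 2 no. 5 at 247. In HIP the lowest were cohort 1 no. 9 at 32.9 and cohort 1 no. 2 at 42.9, 11 arrays lay between 75.0 and 113, and the highest were cohort 1 no. 3 at 162, cohort 1 no. 6 at 165, cohort 2 no. 8 at 179 and cohort 2 no. 2 at 220. The 2 lowest FSL arrays were of cohort 1 in both regions, and the 4 highest were 2 of each cohort. In P/FC the step below those 4, from 157 to 184, was narrower than the next, from 184 to 220, and the order was not the same by every probeset. There 1388213_a_at put cohort 2 no. 8 (99.7) above cohort 1 no. 4 (93.6) and no. 2 (82.3), and 1388164_at put cohort 2 no. 4 (50.6) below cohort 1 no. 8 (52.6). Over the 39 arrays of a region the widest step between neighbouring values ran from 58.3 to 96.9 in P/FC, with 4 arrays below it, and from 42.9 to 65.6 in HIP, with 5 below. Those below were 2 of 9 FSL arrays of cohort 1 and 0 of 8 of cohort 2 in each region. Among FRL they were 2 of 10 of cohort 2 and 0 of 12 of cohort 1 in P/FC, and 2 of 10 of cohort 2 and 1 of 12 of cohort 1 in HIP. Arrays that bear the same number in both regions were not alike in RT1-S3 (r = -0.20 over 17 FSL numbers and 0.26 over 22 FRL numbers), so the numbers do not show whether the same rats were low in both.

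Over the FSL arrays of both cohorts, with cohort means not removed, the genes whose values ran most like RT1-S3 differed between the regions. Over the 17 FSL arrays of HIP, 4 of the first 5 genes lie on chromosome 20, the chromosome of the RT1 complex: RT1-CE16 (another class I heavy chain, r = 0.91), Slc39a7 (a zinc transporter, r = 0.82), RT1-A3 (a class I heavy chain, r = 0.81) and Tapbp (tapasin, which holds class I molecules at the transporter, r = 0.76). The other was Acadm (a dehydrogenase of fatty acid oxidation, r = 0.74). Their rho ran from 0.66 (Slc39a7) to 0.78 (Tapbp), and without the 2 arrays farthest from the RT1-S3 median r was 0.88, 0.74, 0.77, 0.75 and 0.67. Over the 17 FSL arrays of P/FC none of the first 5 lies there: Stat4, Exog, Slc25a15, Ky and Tpm1, with r from 0.81 to 0.83 and rho from 0.47 (Ky) to 0.85 (Exog). The r without the 2 arrays lay between 0.38 (Ky) and 0.78 (Exog), and the same genes had r from -0.15 to 0.39 in HIP. Over the 22 FRL arrays of P/FC they had r of 0.53, -0.25, 0.03, -0.16 and -0.19, in the order named. Of the 5 genes from HIP, RT1-CE16 and Slc39a7 had r of 0.69 and 0.77 over the FSL arrays of P/FC, and RT1-A3, Tapbp and Acadm had 0.23, 0.09 and -0.24. RT1-CE16 and Slc39a7 had r of 0.76 and 0.81 over the 22 FRL arrays of P/FC, and 0.92 and 0.66 over those of HIP. With cohort means removed, r over the FSL arrays of P/FC was 0.83 for RT1-CE16, 0.71 for Slc39a7, 0.42 for RT1-A3 and 0.43 for Tapbp. The ranking of genes was not repeated in that way, so how far the cohorts shape the contrast of the regions was not tested. RT1-CE16 shares sequence with other heavy chains and its probeset name marks such probes, so how far both probesets read the same transcripts was not tested. Slc39a7 is no heavy chain, and 124 coding genes lie between it and RT1-S3.

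RT1-T24-4, the next coding gene to RT1-S3 on chromosome 20, was singled out after its values were seen, because it took the opposite course in the same arrays. Its probeset 1389734_x_at had a step over the 39 arrays of a region from 21.3 to 44.7 in P/FC and from 19.1 to 53.4 in HIP, with 12 arrays below and 27 above in each. Those below were 2 of 8 FSL arrays of cohort 2, 2 of 9 FSL arrays of cohort 1, 4 of 10 FRL arrays of cohort 2 and 4 of 12 FRL arrays of cohort 1, the same counts in P/FC and in HIP. In P/FC the 4 FSL arrays highest in RT1-S3 had RT1-T24-4 at 13.6 to 21.3 and the 2 lowest had it at 101 and 112, with the other 11 at 44.7 to 77.6. In HIP the 4 highest had it at 7.21 to 18.1 and the 2 lowest at 119 and 127, with the other 11 at 53.4 to 88.1. In each region these 4 were the FSL arrays below the RT1-T24-4 step. In P/FC the values of RT1-S3 alone do not set them apart, since the step below them ran only from 157 to 184. RT1-N2, with 3 coding genes between it and RT1-S3, was likewise named after its values were seen. It was at 70.6 and 71.2 in the 2 low arrays and 3.12 to 19.3 in the 4 high ones in P/FC, and at 120 and 136 against 4.10 to 9.55 in HIP. Its widest step over the 39 arrays did not repeat that of RT1-T24-4, with 8 arrays below in P/FC and 10 in HIP. RT1-T24-3, which follows RT1-T24-4, showed no such levels: the 17 FSL arrays lay at 80.0 to 129 in P/FC and 62.2 to 114 in HIP, and both the 2 low and the 4 high arrays of RT1-S3 were within the range of the other 11. No test was run on these levels and the arrays were not averaged by them, and how far the RT1-T24-4 probeset, whose name marks shared probes, reads other heavy chains was not tested.

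**Figure D4:**
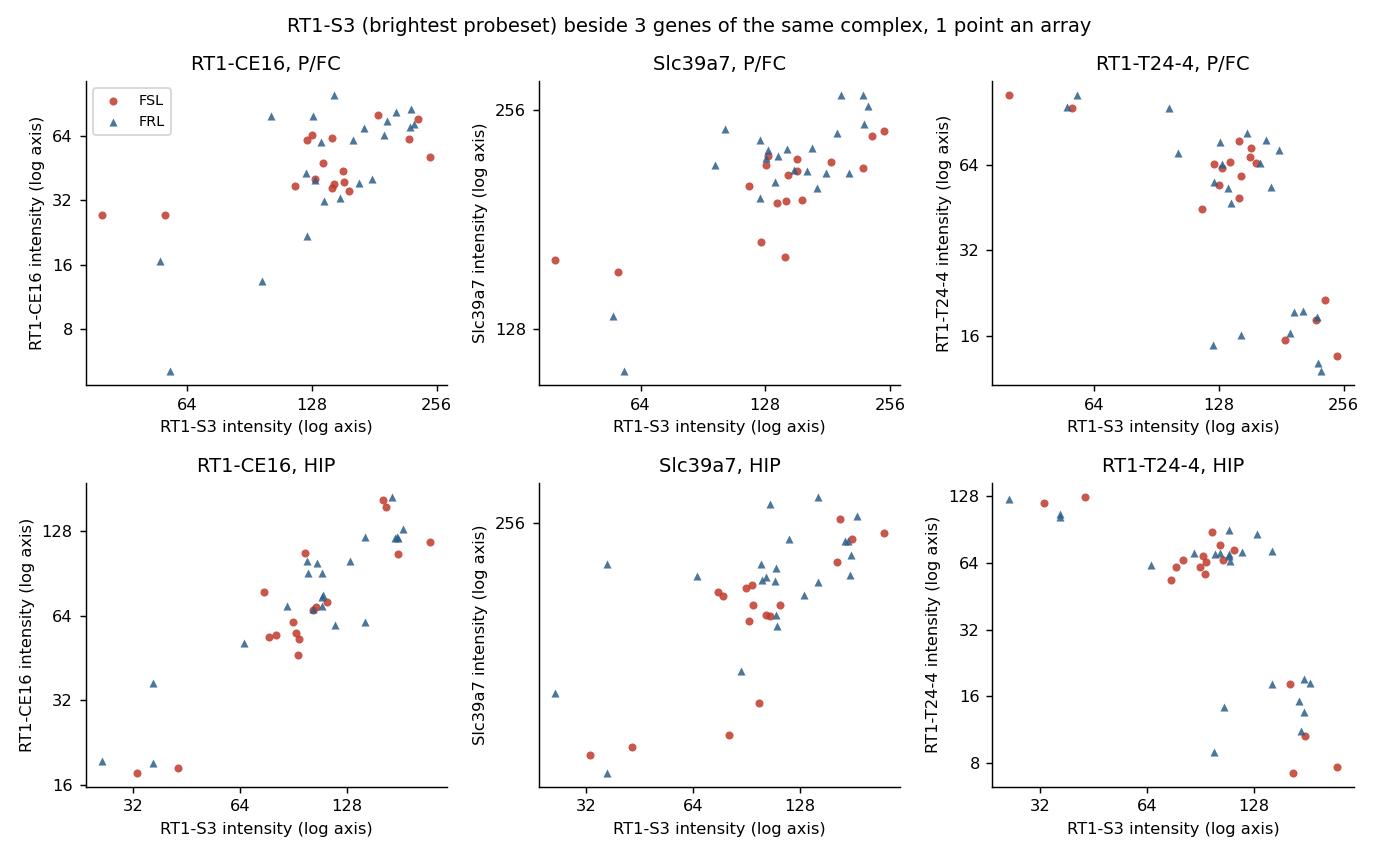
Intensity of RT1-CE16, Slc39a7 and RT1-T24-4 (columns, y axis) against RT1-S3 by 1388212_a_at (x axis) in P/FC (top row) and HIP (bottom row), both axes on a log scale, 1 point an array, FSL as red circles and FRL as blue triangles. In the right column the points fall into separate levels, with 12 arrays of each region at or below 21.3 (P/FC) or 19.1 (HIP) for RT1-T24-4, while in the left column RT1-CE16 is higher where RT1-S3 is higher, with r = 0.91 over the FSL arrays of HIP.

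The class II members were not called between the lines. Cd74, the invariant chain, had 12.9, 31.6 and 120.5 in FSL against 17.2, 43.4 and 126.6 in FRL in P/FC, a difference of -0.41 (SE 0.27, 95% interval -0.96 to 0.14, limma adjusted p = 0.318). In HIP it had 9.45, 25.9 and 93.2 in FSL against 12.8, 33.4 and 134 in FRL, and without the filter the difference was -0.37 (SE 0.24, limma adjusted p = 0.463). The arrays of a line differed by up to 10.4 times (FRL in HIP), and the lines overlapped. In cohort 2, 5 of 8 FSL arrays of P/FC and 3 of 8 of HIP were below the lowest FRL array, against 1 of 9 in each region in cohort 1. The difference in P/FC was -0.62 in cohort 2 and -0.20 in cohort 1, and in HIP, without the filter, -0.70 in cohort 2 (limma adjusted p = 0.472) and -0.04 in cohort 1. The cohort 2 minus cohort 1 difference was -0.42 in P/FC and -0.67 in HIP (limma adjusted p = 0.998 and 1.0). RT1-Da had 41.2, 67.1 and 116 in FSL against 39.4, 70.6 and 113 in FRL in P/FC, and 35.2, 53.1 and 90.6 in FSL against 34.2, 61.6 and 103 in FRL in HIP. Its difference was -0.10 in P/FC (95% interval -0.38 to 0.17) and -0.17 in HIP (-0.37 to 0.04).

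Cd74 and RT1-Da ran together from array to array, with r = 0.71 in P/FC and 0.78 in HIP over 39 arrays after group means were removed. The genes most like Cd74 were Vim (a filament protein), Ogn (a matrix protein), Gjb2 (a connexin), Igfbp2 (a binding protein of growth factors) and Slc6a20a (an amino acid transporter) in P/FC, with r from 0.87 to 0.89, and Ogn, RT1-Da, Igf2 (a growth factor), Anxa2 (an annexin) and Idh2 (a mitochondrial enzyme) in HIP, with r from 0.77 to 0.79. Igf2 and Igfbp2 are among the 7 markers of the meninges used here. The mean of those 7 markers ran with Cd74 at r = 0.89 in P/FC (rho = 0.79, and r = 0.87 without the 2 arrays farthest from the median) and at r = 0.80 in HIP (rho = 0.62, and r = 0.68). The mean of 14 microglia markers gave r = 0.23 in P/FC and 0.15 in HIP, that of 6 markers of macrophages of vessels and meninges 0.51 and 0.48, that of 9 endothelial and mural markers 0.47 and 0.58, and that of 5 choroid plexus markers 0.07 and 0.63. In the FSL array of P/FC highest in Cd74 (cohort 2 no. 6, 120.5) the mean of the meninges markers was 8.38, and in the lowest (12.9) it was 6.08. In the FRL array of HIP highest in Cd74 (cohort 2 no. 3, 134) it was 8.57, and in the lowest (12.8) it was 6.55. Between the lines, 0 of 6 meninges markers kept were called in P/FC and 1 of 7 in HIP, where 18.6% and 7.33% of all probesets were called. The 1 called was Dcn (decorin), which was higher in FSL by 0.62. Most of the list went the other way: 5 of 7 differences were negative in HIP, with a median of -0.23. In P/FC 5 of 6 were negative, with a median of -0.14. The summed intensity of all 7 was 959, 1723 and 5788 in FSL and 900, 1599 and 6942 in FRL in P/FC, and 1340, 1503 and 4659 in FSL and 1212, 1750 and 6299 in FRL in HIP, and none was at 0 on all arrays.

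**Figure D5:**
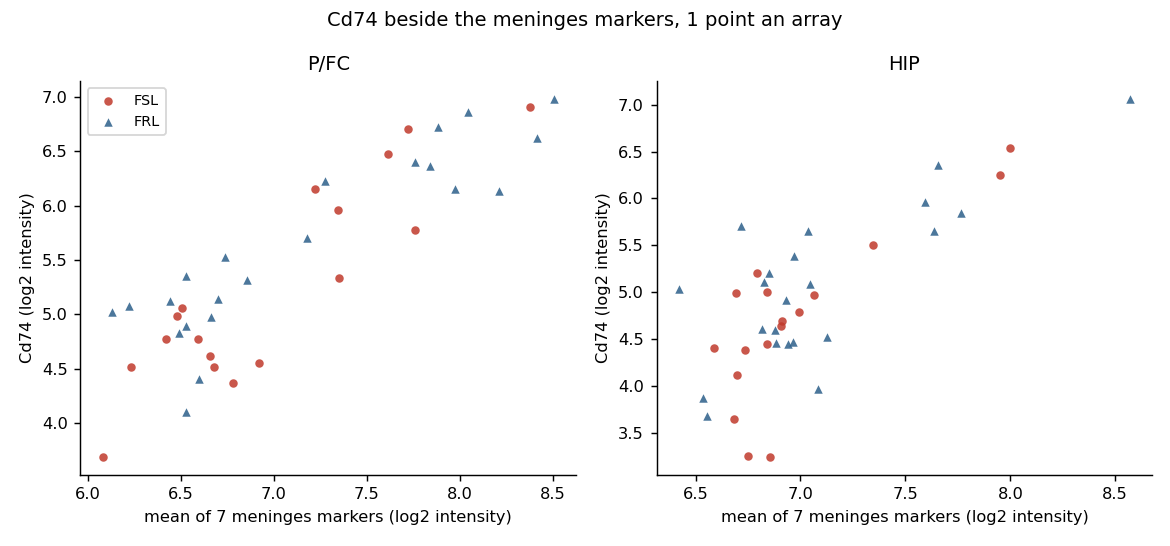
Cd74 (y axis, log2 intensity) against the mean of 7 meninges markers (x axis, log2 intensity) in P/FC (left) and HIP (right), 1 point an array, FSL as red circles and FRL as blue triangles. Cd74 is higher where the marker mean is higher in both regions, with r = 0.89 in P/FC and 0.80 in HIP after group means were removed, and the lines are mixed along the whole course.

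The other genes of the pathway gave few calls. Of the 26 probesets of other RT1 genes, 1 of 13 kept was higher and 2 were lower in FSL in P/FC, and 1 of 15 was higher in HIP, where RT1-Ba, a class II chain, had 2 of those kept in P/FC and 3 of those kept in HIP. Each other list had 1 probeset a gene. RT1-M3-1, a class I gene, was higher in both, by 0.21 in P/FC (limma adjusted p = 0.00104) and 0.27 in HIP (limma adjusted p = 0.00479). RT1-DMb, a chain of the class II chaperone that loads peptides, was lower by 0.31 in P/FC (limma adjusted p = 0.000107), with -0.07 in HIP, and RT1-T24-3 was at -0.24 in P/FC (limma adjusted p = 0.0234). The median difference of these probesets was -0.11 in P/FC and 0.0061 in HIP. Of 9 genes of class I loading, 1 was higher in P/FC, Pdia3 (a chaperone of the loading complex, 0.15), and 0 were called in HIP, with medians of 0.01 and -0.0060. Of the 22 regulators kept, 0 were called in P/FC and 1 in HIP, Irf9 (the DNA-binding part of an interferon-activated factor, -0.21, limma adjusted p = 0.0087). Of the 21 interferon-stimulated genes kept, 1 was called in P/FC, Igtp (a GTPase, -0.22), and 0 in HIP. These lists were chosen with earlier results known, and their counts are read beside the 18.6% and 7.33% of all probesets called.

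Of the proteasome genes other than the members, 4 of 6 were called in P/FC, where 18.6% of all probesets were called. There 3 of 6 were higher in FSL, the constitutive subunits Psmb5 (0.28, limma adjusted p = 0.00114) and Psmb7 (0.14, limma adjusted p = 0.0012) and the assembly factor Pomp (0.10, limma adjusted p = 0.00902). Psmb10, the third catalytic subunit of the immunoproteasome, was lower by 0.16 there (limma adjusted p = 0.0187). The activator subunits Psme1 and Psme2 were at -0.03 and 0.01 in P/FC and not called. In HIP 1 of 6 was called, where 7.33% of all probesets were called. It was Psmb7, which was higher by 0.08, while Psmb5 was at 0.10 and Psmb10 at -0.09 (limma adjusted p = 0.258 and 0.207). The median of the list was 0.05 in P/FC and 0.04 in HIP. In the class II pathway, 2 of 8 genes kept were lower in FSL in P/FC and 1 of 8 in HIP, where 18.6% and 7.33% of all probesets were called. Ctss, cathepsin S, the protease that removes the invariant chain, was at -0.28 in P/FC (limma adjusted p = 0.000596) and -0.17 in HIP (limma adjusted p = 0.000196), and Lgmn, another lysosomal protease, at -0.10 in P/FC.

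Calls among the markers of blood-borne and other cells are read beside the share of all probesets called, 18.6% in P/FC and 7.33% in HIP. Of 7 markers of lymphocytes and dendritic cells kept in P/FC, 1 was lower in FSL (Flt3, a receptor of dendritic cell precursors, -0.42), with 0 of 3 in HIP, and of the macrophage markers 1 of 3 was lower in P/FC (Lyve1, -0.36), with 0 of 2 in HIP. The markers of neutrophils and red blood cells and of the choroid plexus gave 0 calls in either region at 2 and 4 kept. Markers of striatal neurons were higher in FSL in P/FC for 2 of 6, Tac1 (0.89) and Drd1 (0.76), with a summed intensity of 1073, 2872 and 5148 in FSL and 901, 1514 and 4929 in FRL, and their part in the differences of P/FC was not tested. Of 4 markers of hippocampal neurons 0 were called in HIP and 1 in P/FC (Nr3c2, 0.27), and their summed intensity had a median of 1171 in FSL and 1116 in FRL in P/FC, and of 2378 in FSL and 2356 in FRL in HIP. The median intensity of an array ran from 60.8 to 66.0 in P/FC and from 56.8 to 63.0 in HIP, after the authors' normalisation across arrays.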

How the data were processed

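Total RNA was labelled as biotinylated cRNA and hybridised to 1 array per rat and region. The authors normalised the intensity of each probeset across arrays in Rosetta Resolver, and the deposited table holds 31099 probesets on a linear scale, of which 57 are controls. The regions were processed apart, each cohort in 2 batches that the labels do not give, with 1 lot of reagents and arrays per cohort, so cohort and lot cannot be told apart. The exact age of the rats is not given in the sources used here. The arrays are labelled as biological replicates.

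Values under 1 were set to 1 and taken as log2. FSL minus FRL was fitted per region with limma 3.58.1 (R 4.3.3), as 1 mean per line and cohort, and averaged over the cohorts with equal weight. P-values were adjusted (Benjamini-Hochberg) over all kept probesets, with a threshold of 0.05. The level of P/FC minus HIP and the line by region difference were fitted on the 78 arrays taken as independent. Intervals cover 95%. The number of arrays limits the precision. Correlations are descriptions on log2 values, with no p. The code was tested on simulated data, and figures were drawn with matplotlib 3.10.9.

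Gene names came from the array annotation, which gave 1 symbol for 20832 probesets, several for 436 and none for 9831. The members and the gene lists were chosen with earlier results of these data known. The text names every probeset of the members, genes called among the 4 of each list that had the smallest adjusted p in either region, and the 5 genes most like RT1-S3 (over FSL arrays) or Cd74 (over both lines) in a region. RT1-T24-4 and RT1-N2 were added after their values were seen. The probeset of highest average intensity stood for each list gene, except among the other RT1 genes, where every probeset was kept. Alternatives were no filter, a limit of 100, plain analysis of variance, quantile normalisation, 16 added, cohorts fitted separately, the Gapdh or Actb ratio as a covariate, the replicate number as a block and genes averaged over their probesets. Marker means as covariates, leaving out single arrays and the interaction under these settings were added after the data were seen.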

Additional observations from a re-analysis of the deposited data

Results flagged for a closer look

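In 78 groups of 8 to 10 arrays, 5 had a lowest or highest array far from its neighbours, and chance gives this in about 1 of 20 groups. Groups of 12 arrays were not tested. B2m 1371440_at was at 453 in FSL P/FC cohort 1 no. 9, the highest of that group, with the nearest array at 378. Psmb8 was highest at 62.3 in FSL P/FC cohort 1 no. 2, with the nearest at 38.5, and lowest at 34.2 in FSL HIP cohort 1 no. 5, with the nearest at 48.0. RT1-S3 1388164_at was lowest at 27.8 in FSL P/FC cohort 1 no. 6, with the nearest at 52.6, and this array was also the second lowest FSL array of P/FC by 1388212_a_at. Tap1 1388149_at was lowest at 0.994 in FRL P/FC cohort 2 no. 1, with the nearest at 6.32, in a probeset that was below 30 on every array.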

How the results depend on the processing

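Of the values of single probesets, 618 kept their direction and their side of the threshold, 14 lost a call, 3 gained one and 45 changed sign. The B2m calls over both cohorts held in both regions without the filter, with a limit of 100, with plain analysis of variance, with quantile normalisation and with 16 added. In P/FC 0 members were called with the Gapdh ratio, the endothelial and mural mean or the astrocyte mean, in place of 2. In HIP 0 were called with the Actb ratio, the astrocyte mean or the replicate block, in place of 2. The calls over all probesets also moved, to 853 with the Gapdh ratio, 1334 with the endothelial and mural mean and 439 with the astrocyte mean in P/FC, in place of 4166. In HIP they moved to 442 with the Actb ratio and 309 with the astrocyte mean, in place of 1586. With the replicate block the HIP calls over all probesets rose to 2092, while B2m lost its call. In cohort 2 of P/FC, in place of 1, the count was 0 without the filter, with cohorts fitted separately, with the Gapdh ratio and with the block, and 2 with a limit of 100, with 16 added and with the Actb ratio. Of the P/FC minus HIP levels 0 were called with a limit of 100, since this left only the 2 B2m probesets of the members.

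Leaving out each array in turn gave 2 to 3 members called in P/FC and 2 to 2 in HIP over both cohorts, and 0 to 2 in cohort 2 of P/FC and 0 to 1 in cohort 2 of HIP. In cohort 2 of P/FC the count was 0 in 11 of 39 fits, without FSL cohort 2 no. 1, 2, 4, 5 or 8 or FRL cohort 2 no. 3, 5, 7, 8, 9 or 10. It was 2 in 8 of them, without FSL cohort 2 no. 7, FRL cohort 2 no. 2 or 6, or FRL cohort 1 no. 1, 5, 6, 7 or 12. In cohort 2 of HIP it was 1 without FRL cohort 2 no. 4 or 6.

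Same-numbered FSL and FRL arrays of a region deviated together weakly. The median r was 0.15 in P/FC (from -0.14 to 0.37, over 0.1 in 10 of 17 pairs). In HIP it was 0.09 (from -0.16 to 0.42, over 0.1 in 8 of 17). The labels do not say whether a number stands for anything shared, and this was not tested. With the replicate block, B2m in HIP was at -0.12 and -0.13 (limma adjusted p = 0.0665 and 0.0564).

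The signs that changed are given as FSL minus FRL (log2), and the cause was not tested. In P/FC over both cohorts, Tap2 was at 0.0043 with the microglia mean, 0.069 with the astrocyte mean, 0.035 with the Gapdh ratio, 0.025 with the Actb ratio and 0.0062 with the block. Psmb9 was at 0.034 (microglia), 0.13 (endothelial and mural), 0.18 (astrocyte) and 0.026 (Gapdh). B2m was at 0.00066 and 0.0023 with the astrocyte mean, RT1-Da at 0.14 (endothelial and mural) and 0.088 (astrocyte), and Cd74 at 0.018 (endothelial and mural). RT1-S3 1371123_x_at was at 0.051 (microglia), 0.18 (endothelial and mural), 0.13 (astrocyte), 0.062 (Gapdh) and 0.082 (Actb). RT1-S3 1388164_at was at 0.0012 (microglia), 0.087 (endothelial and mural) and 0.11 (astrocyte). RT1-S3 1388212_a_at was at 0.023 (microglia), 0.051 (endothelial and mural), 0.10 (astrocyte), 0.13 (Gapdh), 0.081 (Actb) and 0.026 (block). In single cohorts of P/FC, Psmb9 was at 0.031 in cohort 2 (Gapdh), and at 0.020 (Gapdh) and 0.0038 (Actb) in cohort 1. In HIP over both cohorts, RT1-S3 1388212_a_at was at 0.066 (endothelial and mural), 0.015 (meninges), 0.65 (astrocyte), 0.080 (Gapdh) and 0.091 (Actb), RT1-S3 1388213_a_at at 0.50 (astrocyte) and 0.019 (Gapdh), RT1-S3 1388164_at at 0.33 (astrocyte) and Tap2 at -0.21 (astrocyte) and -0.0066 (Gapdh). In single cohorts of HIP, RT1-S3 1388164_at was at -0.0068 in cohort 2 with 16 added, and Tap2 at -0.019 (Gapdh) and -0.0042 (block) in cohort 1. The difference between regions in the line change of RT1-S3 1388212_a_at was -0.00070 after quantile normalisation.

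Intensities near 30 limit Psmb8, Tap1, Tap2 and Cd74, and a probeset of the RT1 family can read more than 1 gene.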
